A study of Oryza sativa Japonica Group with 17 samples.

Results

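OsADF6 and OsADF9 are rice genes of the actin-depolymerizing factor (ADF) family. They are LOC4336623 and LOC4343240 in the gene table, 2 of the 17905 genes with a probe set of their own on the Affymetrix rice array, and each has 1 of the 57258 probe sets tested. They were found by symbol or synonym, and were chosen by their differences between homozygotes of 2 insertion lines of OsGS1;1 and the controls of those lines. Their values in those comparisons are therefore given as a description, with no test. In the mean effect over both lines, OsADF9 had place 5 and OsADF6 place 10 by size of fall. The places are among named genes that passed at an adjusted p under 0.05 and whose homozygotes lay below the controls without overlap in each line.

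The series holds 17 root samples of the cultivar Nipponbare, each on its own array, from plants raised for 18 days in water culture with 1 mM ammonium. NC2373 homozygotes (n = 2) and ND8037 homozygotes (n = 3) carry an insertion in OsGS1;1, a gene of cytosolic glutamine synthetase, the enzyme that joins ammonium to glutamate. Their controls are NC2373 plants without the insertion (n = 3) and ND8037 nulls (n = 3), each segregated out of a heterozygote of that line. The gs1;2 mutant (n = 3) is homozygous for a disrupted OsGS1;2, another gene of that enzyme, and was set against wild type (n = 3), since the labels list no segregated null for it. For gs1;2, any other change in that line cannot be told apart from the loss of the gene. The samples are biological replicates, per the design text. Individual arrays are called here by the numbers of their labels.

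ADF proteins, the plant members of the ADF and cofilin family, bind actin filaments, sever them and speed the loss of subunits from their pointed ends. They thereby return actin monomers for new filaments, and in plants this turnover accompanies the tip growth of root hairs and pollen tubes and the elongation of root cells. Formins, villins and the Arp2/3 complex act on the same filaments by nucleating, bundling or branching them.

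Each mutant had low signal of its disrupted gene. OsGS1;1 averaged 8.75 ± 0.14 in NC2373 homozygotes and 12.12 ± 0.35 in NC2373 without insertion, and 8.06 ± 0.08 in ND8037 homozygotes and 10.30 ± 0.42 in ND8037 nulls. OsGS1;2 averaged 7.01 ± 0.18 in gs1;2 and 12.44 ± 0.17 in wild type. All levels are log2 signals from robust multi-array averaging (RMA), given as mean ± SD. The arrays fall into 2 sets that RMA may have treated apart: the median signal was 4.68 to 4.71 on the 6 ND8037 arrays and 5.37 to 5.41 on the 11 others. The 3′ minus 5′ signal of the actin control probe sets, a sign of RNA quality or labelling, was 4.62 to 5.02 on the ND8037 arrays and 2.58 to 3.02 on the others. That of the GAPDH control probe sets overlapped between the sets, at -0.52 to 0.22 on the ND8037 arrays and -0.18 to 0.68 on the others. Levels are therefore compared only within a set, and levels of different probe sets are not compared. Over all arrays the root silicon transporters LSI1 and LSI2 read 12.4 to 13.6 and 10.1 to 12.0, the Casparian strip gene CASP1 8.24 to 10.2 and the phosphate transporter PT6 1.97 to 2.99, each on the scale of its own probe set.

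The level of OsADF9 separated the NC2373 samples without the insertion from every other group of that array set. Its signal was 2.90 and 2.94 in the NC2373 homozygotes, 3.54, 3.11 and 3.31 in gs1;2, 5.50, 5.72 and 7.04 in NC2373 without insertion, and 3.92, 3.87 and 4.04 in wild type. The order of the group means was thus NC2373 homozygote (2.92 ± 0.03), gs1;2 (3.32 ± 0.21), wild type (3.94 ± 0.09) and NC2373 without insertion (6.09 ± 0.83), and no neighbouring groups in this order overlapped. Each such step taken alone, from the lowest group up, was free of overlap at 26.4%, 11.7% and 7.17% of all probe sets. Within the highest group, array 154 stood above the other two. In the other array set, the signal was 2.65, 3.35 and 2.85 in ND8037 homozygotes and 4.24, 4.97 and 4.60 in ND8037 nulls. These groups, at 2.95 ± 0.36 and 4.60 ± 0.37, did not overlap either, as at 16.5% of all probe sets with homozygotes below.

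OsADF6 followed the same order with smaller steps. Its signal was 4.36 and 4.30 in the NC2373 homozygotes, 4.57, 4.43 and 4.34 in gs1;2, 5.85, 5.42 and 7.01 in NC2373 without insertion, and 4.45, 4.91 and 4.70 in wild type. The means were 4.33 ± 0.04 in NC2373 homozygotes, 4.45 ± 0.12 in gs1;2, 6.09 ± 0.82 in NC2373 without insertion and 4.69 ± 0.23 in wild type. The homozygotes overlapped gs1;2 and gs1;2 overlapped wild type, whereas NC2373 without insertion lay above all of them, again with array 154 highest. In the ND8037 set, OsADF6 read 3.67, 4.00 and 3.61 in the homozygotes and 4.78, 5.20 and 4.52 in the nulls, or 3.76 ± 0.21 and 4.83 ± 0.34. The deposited values carry no detection call, so it is not known here whether the lowest readings of either gene lay above background. OsADF9 was dim, below the lower quartile of all probe sets, on every array of NC2373 homozygotes and gs1;2. It was also below that quartile on ND8037 homozygotes 123 and 125, but above it on 124 and on all control and wild-type arrays. The OsADF9 differences that involve these mutants thus rest in part on dim readings. OsADF6 lay above the lower quartile on every array. In RNA from whole roots, fewer cells of a type and less RNA per cell cannot be told apart.

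**Figure D1:**
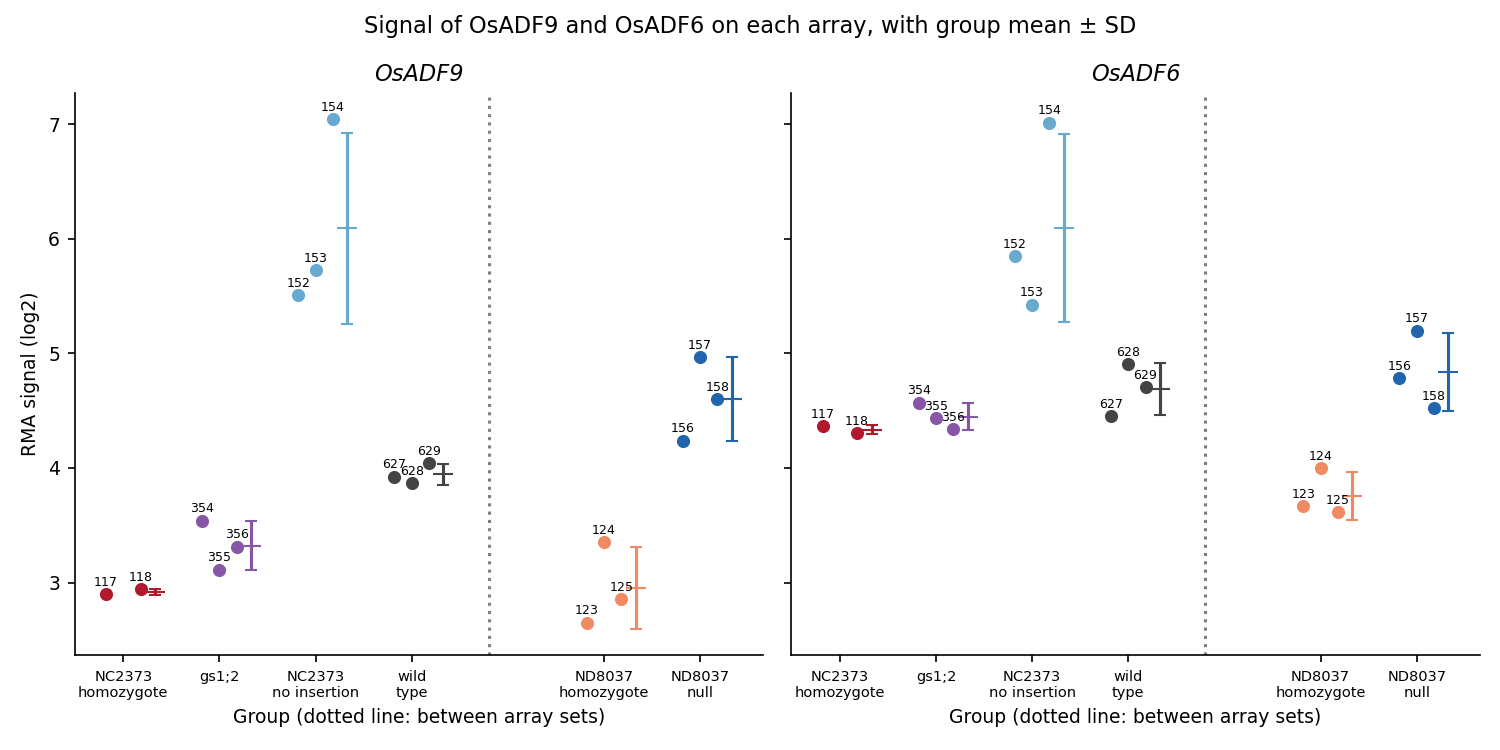
Log2 RMA signal of OsADF9 and OsADF6 on each of the 17 arrays (points, 1 per array; bars, group mean ± SD), by group, with the ND8037 array set apart from the others. NC2373 without insertion lies above the other groups of its set in both genes, with array 154 at 7.04 for OsADF9 and 7.01 for OsADF6.

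In both lines the OsGS1;1 homozygotes had less signal of both genes than their segregated controls, which is what chose the genes. For OsADF9 the log2 difference was -3.17 (SE 0.34) in NC2373 and -1.65 (SE 0.31) in ND8037, a 9.00-fold and a 3.14-fold lower signal. For OsADF6 it was -1.76 (SE 0.32) in NC2373 and -1.08 (SE 0.29) in ND8037, or 3.39-fold and 2.11-fold lower. In NC2373, 14 of all probe sets had a more negative difference than OsADF9 and 77 a more negative one than OsADF6, and in ND8037 62 and 229 did. Homozygotes lay below their controls without overlap at 20.0% of all probe sets in NC2373 and at 16.5% in ND8037, and in both lines at 5.33%. The mean effect over the lines was -2.41 (SE 0.23) for OsADF9 and -1.42 (SE 0.22) for OsADF6. The choice took the 10 largest falls of named genes that passed in the mean effect and had no overlap in either line. Just inside it stood Os4bglu12 at -1.44 and OsADF6 itself, and just outside it OsCIN2 at -1.40.

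Both genes had the more negative difference in NC2373. The effect in NC2373 minus that in ND8037 was -1.52 (SE 0.46) for OsADF9 and -0.69 (SE 0.43) for OsADF6. Both rest in part on array 154: without it the NC2373 difference was -2.69 for OsADF9 and -1.30 for OsADF6, and the difference between lines was -1.04 (SE 0.30) and -0.23 (SE 0.27).

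NC2373 without insertion carries an intact OsGS1;1, as wild type does, and its OsADF6 and OsADF9 signals were above those of wild type. The log2 difference from wild type was 2.15 (SE 0.31), or 4.43-fold, for OsADF9 and 1.41 (SE 0.29), or 2.65-fold, for OsADF6. The lowest array without insertion, at 5.50 for OsADF9 and 5.42 for OsADF6, exceeded the highest wild-type array, at 4.04 and 4.91. Such a gap with NC2373 without insertion on top held for 7.17% of all probe sets. Only 18 of the other probe sets had a larger difference than OsADF9, and 130 a larger one than OsADF6. Without array 154 the differences were 1.67 (SE 0.21) and 0.95 (SE 0.19). These values share the control arrays of the comparison that chose the genes and are a description as well.

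Set against wild type instead of their segregated controls, the NC2373 homozygotes differed less. The difference was -1.02 (SE 0.34) for OsADF9, against -3.17 relative to NC2373 without insertion. It was -0.36 (SE 0.32) for OsADF6, against -1.76. Neither gene overlapped between homozygotes and wild type, as was the case, with homozygotes below, at 20.0% of all probe sets. The homozygotes and gs1;2 differed by -0.40 (SE 0.34) for OsADF9, without overlap as at 26.4% of all probe sets, and by -0.11 (SE 0.32) for OsADF6, with overlap. The gs1;2 samples lay below NC2373 without insertion by -2.77 (SE 0.31) for OsADF9 and -1.65 (SE 0.29) for OsADF6, with no overlap, as at 15.0% of all probe sets. These comparisons reuse the same arrays and are set side by side, not added up.

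The comparison of gs1;2 with wild type is the 1 comparison that shares no array with those that chose the genes, and neither gene passed its test. OsADF9 was at 3.11 to 3.54 in gs1;2 and 3.87 to 4.04 in wild type, a log2 difference of -0.62 (SE 0.31, limma adjusted p = 0.284). The groups did not overlap, as at 11.7% of all probe sets with gs1;2 below, and the 95% interval of the difference ran from -1.28 to 0.03. OsADF6 was at 4.34 to 4.57 in gs1;2 and 4.45 to 4.91 in wild type, a difference of -0.24 (SE 0.29, limma adjusted p = 0.713) with an interval from -0.86 to 0.38. The groups overlapped for OsADF6. Over all probe sets, 4.03% passed in this comparison. The SE and interval come from a spread pooled over all 17 arrays, those that chose the genes included. With only the gs1;2 and wild-type arrays in the fit, the OsADF9 difference of -0.62 had an SE of 0.12, an interval from -0.90 to -0.34 and an adjusted p of 0.0681. Without array 154 it had an SE of 0.19, an interval from -1.02 to -0.22 and an adjusted p of 0.0854. The intervals for OsADF9 thus excluded 0 in both of these fits, while its adjusted p stayed above 0.05. For OsADF6 the interval with only the 2 groups ran from -0.54 to 0.06 (adjusted p = 0.364).

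Of the other genes of the family, 7 had a probe set of their own: OsADF1, OsADF2, OsADF4, OsADF5, OsADF7, OsADF10 and OsADF11. The OsADF4 probe set may read more than 1 transcript. In the mean effect of OsGS1;1 disruption, 3 of the 7 fell, 0 rose and 4 did not pass, where 7.09% of all probe sets fell. Their median difference was -0.14, against -0.03 over all probe sets. OsADF1 differed by -0.92 (SE 0.23, limma adjusted p = 0.0139), OsADF11 by -0.53 (SE 0.14, limma adjusted p = 0.0169) and OsADF4 by -0.18 (SE 0.05, limma adjusted p = 0.0210). Each of the 3 calls was lost without NC2373 homozygote 117 (adjusted p of 0.0597 for OsADF1, 0.0897 for OsADF11 and 0.0891 for OsADF4), and that of OsADF4 also without ND8037 homozygote 123 (0.0529).

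In NC2373 alone, 2 of the 7 fell, OsADF1 and OsADF11, where 3.58% of all probe sets did. OsADF11 averaged 6.36 ± 0.21 in the homozygotes and 7.34 ± 0.06 in their controls, a difference of -0.99 (limma adjusted p = 0.00904). Its groups did not overlap, as at 20.0% of all probe sets with homozygotes below. OsADF1 averaged 7.62 ± 0.12 in the homozygotes and 8.86 ± 0.69 in their controls, a difference of -1.24 (limma adjusted p = 0.0384). Relative to wild type, neither gene passed in the NC2373 homozygotes. The difference there was 0.01 (limma adjusted p = 0.991) for OsADF11 and -0.18 (limma adjusted p = 0.852) for OsADF1. The OsADF1 call was lost without any 1 of 7 arrays, 152, 154, 117 and 118 of NC2373 and 124, 156 and 158 of ND8037, with adjusted p up to 0.186, and that of OsADF11 without 117 (0.0964). In ND8037 0 of the 7 passed in limma, where 9.08% of all probe sets passed, and 2 had an unadjusted p under 0.05. The share of all probe sets with such an unadjusted p was not counted, for this comparison or those below. In ND8037 OsADF1 differed by -0.60 (limma adjusted p = 0.242) and OsADF11 by -0.07 (limma adjusted p = 0.866). The difference between the lines passed for 0 of the 7 in limma and for 0.00873% of all probe sets. It had an unadjusted p under 0.05 for 2, OsADF11 at -0.92 (adjusted p = 0.147) and OsADF7 at -0.78 (adjusted p = 0.216).

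OsADF11 also set NC2373 without insertion apart from wild type. It averaged 7.34 ± 0.06 in NC2373 without insertion and 6.35 ± 0.06 in wild type, a log2 difference of 1.00 (SE 0.18, limma adjusted p = 0.0184). It was the 1 gene of the 7 that rose, where 0.428% of all probe sets did, and 0 fell. The call was lost without array 152 (adjusted p = 0.0599) or wild-type array 627 (0.0729). OsADF1 averaged 8.86 ± 0.69 in NC2373 without insertion and 7.80 ± 0.61 in wild type, a difference of 1.06 (SE 0.31, limma adjusted p = 0.121) that did not pass, but did without array 153 (1.46, adjusted p = 0.0249). OsADF10 went the other way, with a difference of -0.47 (SE 0.13, limma adjusted p = 0.118) that did not pass either. The median over the 7 genes was 0.05.

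Between gs1;2 and wild type, 0 of the 7 passed in limma, where 4.03% of all probe sets did. An unadjusted limma p under 0.05, whose share over all probe sets was not counted, was found for 3, all with lower signal in gs1;2. These were OsADF5 at -0.22 (adjusted p = 0.172), OsADF7 at -0.47 and OsADF10 at -0.36. The median over the 7 was -0.26, against 0.02 over all probe sets. Relative to NC2373 without insertion, gs1;2 had lower signal of 3 of the 7, where 5.95% of all probe sets fell. OsADF1 fell by 1.32 (limma adjusted p = 0.0141), OsADF11 by 1.25 (limma adjusted p = 0.00103) and OsADF7 by 0.83 (limma adjusted p = 0.0161).

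Within an array set, the group means of OsADF2, OsADF4 and OsADF5 lay close together. On the 11 arrays outside ND8037 they ran between 12.09 and 12.23 for OsADF2, 12.78 and 12.96 for OsADF4, and 11.31 and 11.56 for OsADF5. OsADF10 averaged 8.88 ± 0.02 in NC2373 homozygotes and 9.43 ± 0.29 in wild type, the 1 fall among the 7 in that comparison (difference -0.54, limma adjusted p = 0.0377), where 3.67% of all probe sets fell. In NC2373 without insertion OsADF10 averaged 8.96 ± 0.11. The homozygotes differed from these controls by -0.07 (limma adjusted p = 0.853).

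**Figure D2:**
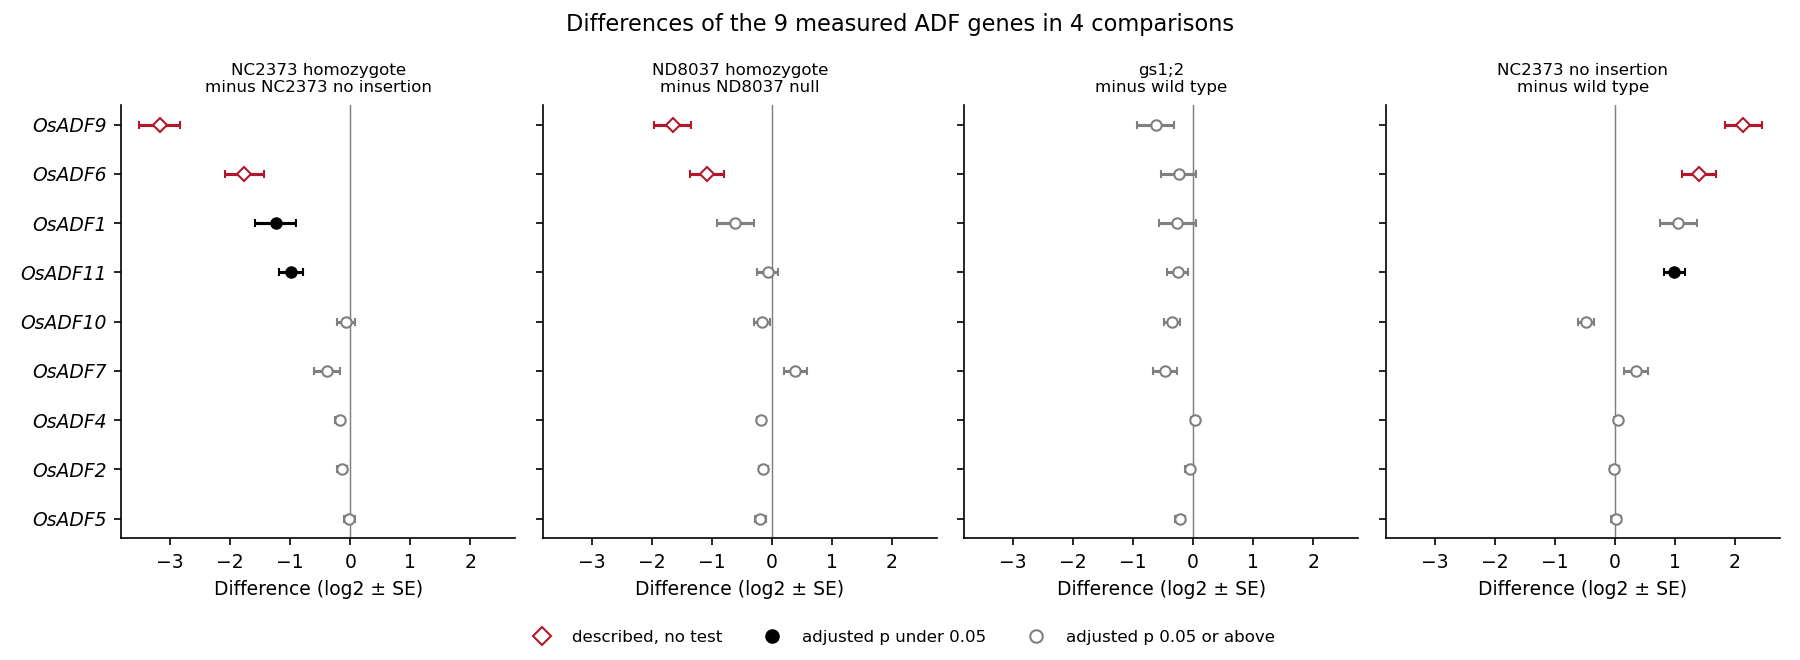
Log2 differences (points) with their SE (bars) of the 9 measured ADF genes for each OsGS1;1 line (homozygote minus segregated control), gs1;2 minus wild type and NC2373 without insertion minus wild type; diamonds were not tested and filled points passed at an adjusted p under 0.05. OsADF9 and OsADF6 have the most negative differences of the 9 in both lines, at -3.17 and -1.76 in NC2373 and -1.65 and -1.08 in ND8037, by the choice of the genes.

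Actin is the protein that ADF proteins bind. The actin list held 5 genes: ACT1, ACT2, ACT3, ACT7 and actin-6, which is also named ARP8, for actin-related protein. Of the 5, 0 passed in limma for the mean effect of OsGS1;1 disruption, where 14.0% of all probe sets did, and 2 had an unadjusted p under 0.05. The differences of the 5 ran from -0.41 to 0.48 with a median of 0.16. In ND8037 homozygotes ACT1 rose by 0.57 (limma adjusted p = 0.0245) and actin-6 fell by 0.66 (limma adjusted p = 0.0480), 2 of 5 where 9.08% of all probe sets passed. An unadjusted limma p under 0.05 was found for 4 of the 5. Their differences there ran from -0.66 to 0.72 with a median of 0.29. ACT1 averaged 12.18 ± 0.11 in the homozygotes and 11.61 ± 0.20 in the nulls. The ACT1 call was lost without homozygote 124 or 125 or null 157 or 158, with adjusted p up to 0.102. That of actin-6 was lost without any 1 of 12 arrays, with adjusted p up to 0.198. In NC2373, 0 of 5 passed in limma, where 7.65% of all probe sets did, and 0 had an unadjusted p under 0.05. Relative to wild type, 0 of 5 passed in gs1;2 and in NC2373 without insertion, with 2 at an unadjusted limma p under 0.05 in each, where 4.03% and 0.913% of all probe sets passed. ACT2 differed by -0.88 (adjusted p = 0.137) in gs1;2 and by 0.94 (adjusted p = 0.194) in NC2373 without insertion. Relative to NC2373 without insertion, 2 of 5 fell in gs1;2 and 0 rose, where 5.95% of all probe sets fell. The differences ran from -1.82 to 0.22. Relative to gs1;2, 2 of 5 rose in NC2373 homozygotes and 0 fell, with differences from -0.22 to 2.06. The share of all probe sets that rose there was not counted. These calls were not tried with arrays left out.

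Of 16 measured genes whose products nucleate, bundle or branch actin filaments (10 formins, 4 villins, ARP3 of the Arp2/3 complex and NAP1 of the WAVE complex that activates it), 1 fell in the mean effect and 0 rose, near the 7.09% of all probe sets that fell. It was the formin FH6, at -0.56 (SE 0.13, limma adjusted p = 0.00827), and the second probe set of that gene was at -0.34 (limma adjusted p = 0.0378). Their median was -0.10. In NC2373, 3 of 16 fell, where 3.58% of all probe sets did: FH6 by 0.86 (limma adjusted p = 0.0125), the formin FH15 by 0.63 (0.0203) and the villin VLN5, a bundling and severing protein, by 0.37 (0.0493). FH6 lost its call without homozygote 117 or 118 (up to 0.0826), and FH15 without homozygote 118 or control 152 (up to 0.218). VLN5 lost it without any 1 of 13 arrays (up to 0.205). In ND8037, 0 of 16 passed in limma, where 9.08% of all probe sets did, with 1 at an unadjusted p under 0.05 and a median of 0.01. Relative to wild type, 0 of 16 passed in limma in gs1;2 (4.03% of all probe sets), with 4 at an unadjusted p under 0.05, and in NC2373 without insertion 0 of 16 (0.913%), with 3. The most different in gs1;2 was the formin FH10, at 6.17 ± 0.20 in gs1;2 and 4.86 ± 0.46 in wild type (difference 1.31, limma adjusted p = 0.0675).

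**Figure D3:**
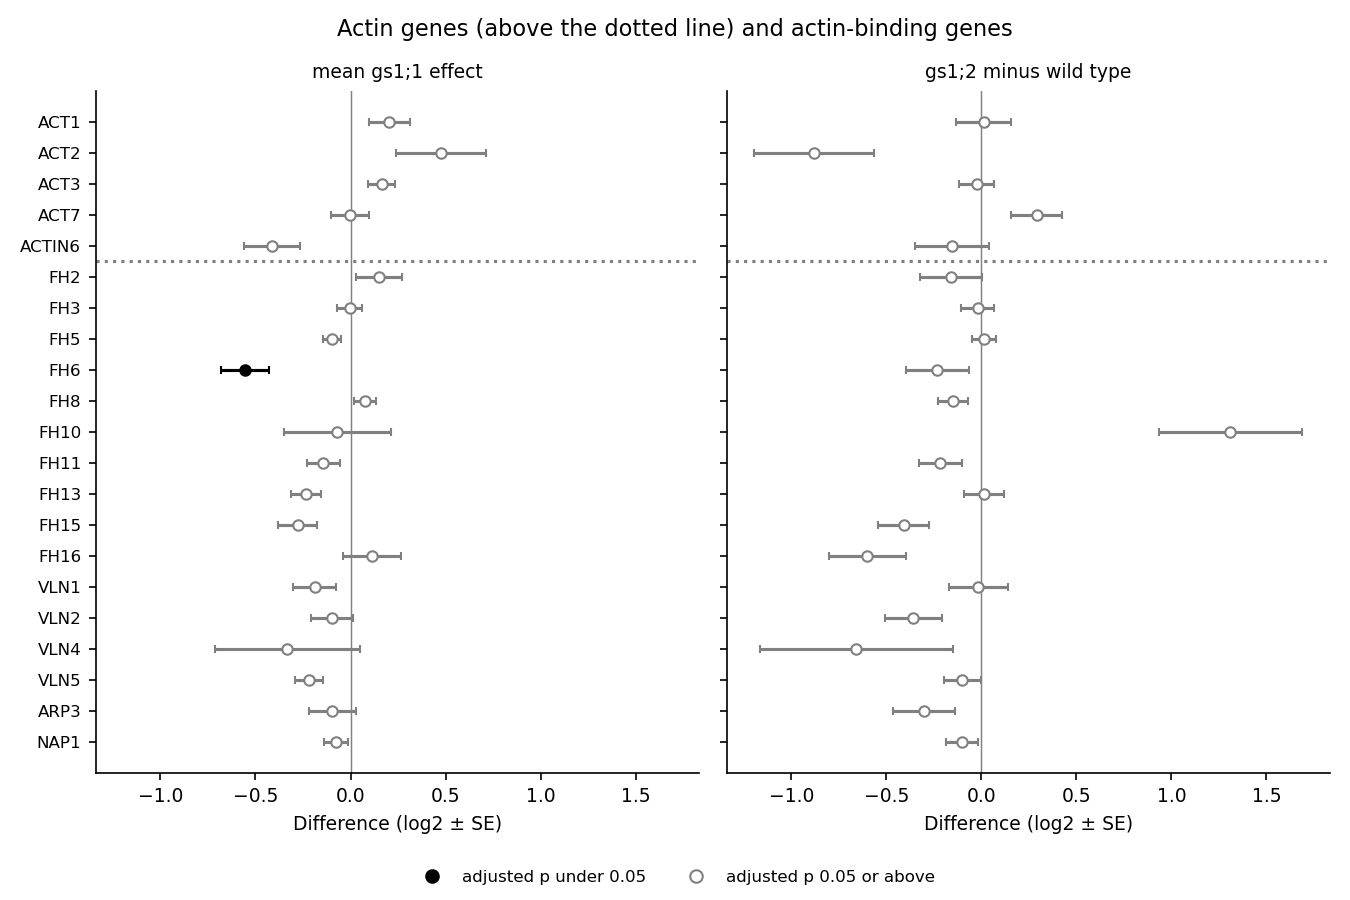
Log2 differences (points) with their SE (bars) of the 5 genes of the actin list and 16 actin-binding or nucleating genes. The mean effect of OsGS1;1 disruption is on the left and gs1;2 minus wild type on the right. Filled points passed at an adjusted p under 0.05. FH6, at -0.56 in the mean effect, is the 1 filled point.

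Profiles over the arrays were then compared, as a description, since both genes were chosen for low signal in the same homozygotes and a likeness between them is in part fixed by that choice. After centring each probe set on the mean of its array set, likeness was measured as the root mean square difference over the 17 arrays. By this measure OsADF6 was the named gene nearest to OsADF9 (0.493, with a median of 1.16 over all probe sets), and 3 of 57257 probe sets were closer. The next named genes were the beta-glucosidase gene Os4bglu12 (0.726), OsGLU6 (0.733), the cytochrome P450 gene CYP87A3 (0.740) and OsBURP02 (0.742), which encodes a BURP-domain protein. The relation was not mutual: 119 probe sets were closer to OsADF6 than OsADF9 was. The named genes nearest to OsADF6 were OsADF1 (0.334), the beta-glucosidase gene Os3bglu6 (0.389), CYP87A3 (0.406), OsCRSH2 (0.424), a gene of plastid alarmone synthesis, and the protein kinase gene OsCIPK31 (0.452). The median over all probe sets was 0.752 for OsADF6.

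The neighbours were picked for profiles near those of OsADF6 and OsADF9, so their high signal in NC2373 without insertion follows from the choice. OsGLU6 averaged 4.89 ± 0.28 in NC2373 homozygotes, 6.29 ± 1.50 in gs1;2, 9.22 ± 0.71 in NC2373 without insertion and 7.27 ± 0.15 in wild type, and 5.78 ± 0.67 in ND8037 homozygotes and 8.44 ± 0.27 in ND8037 nulls. In gs1;2 its 3 arrays were far apart, at 8.01, 5.51 and 5.34, with array 354 above every wild-type array and the others below. CYP87A3 averaged 5.38 ± 0.21 in NC2373 homozygotes, 6.28 ± 0.28 in gs1;2, 7.23 ± 0.26 in NC2373 without insertion and 6.34 ± 0.21 in wild type, so that gs1;2 and wild type lay close together and above the homozygotes. Os4bglu12 averaged 5.37 ± 0.21 in NC2373 homozygotes, 6.33 ± 0.44 in gs1;2, 7.19 ± 0.18 in NC2373 without insertion and 6.15 ± 0.38 in wild type. Its order of gs1;2 and wild type was the opposite of that of OsADF9, with overlap.

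For OsADF6, the nearest profile was that of OsADF1, which read 7.54 and 7.70 in NC2373 homozygotes, 7.86, 7.37 and 7.39 in gs1;2, 9.25, 8.07 and 9.27 in NC2373 without insertion, and 7.15, 8.35 and 7.91 in wild type. Array 153 was thus within the wild-type range for OsADF1, unlike for OsADF6 and OsADF9. In the ND8037 set OsADF1 read 7.33, 7.26 and 7.19 in homozygotes and 7.72, 8.16 and 7.71 in nulls, without overlap, as at 16.5% of all probe sets. Which genes were nearest depended on the measure. Over the 11 arrays outside ND8037 alone, 3 of the 5 names remained for each gene. With a correlation in place of the difference, 3 remained for OsADF6, with OsADF9 then nearest to it, and 4 for OsADF9.

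**Figure D4:**
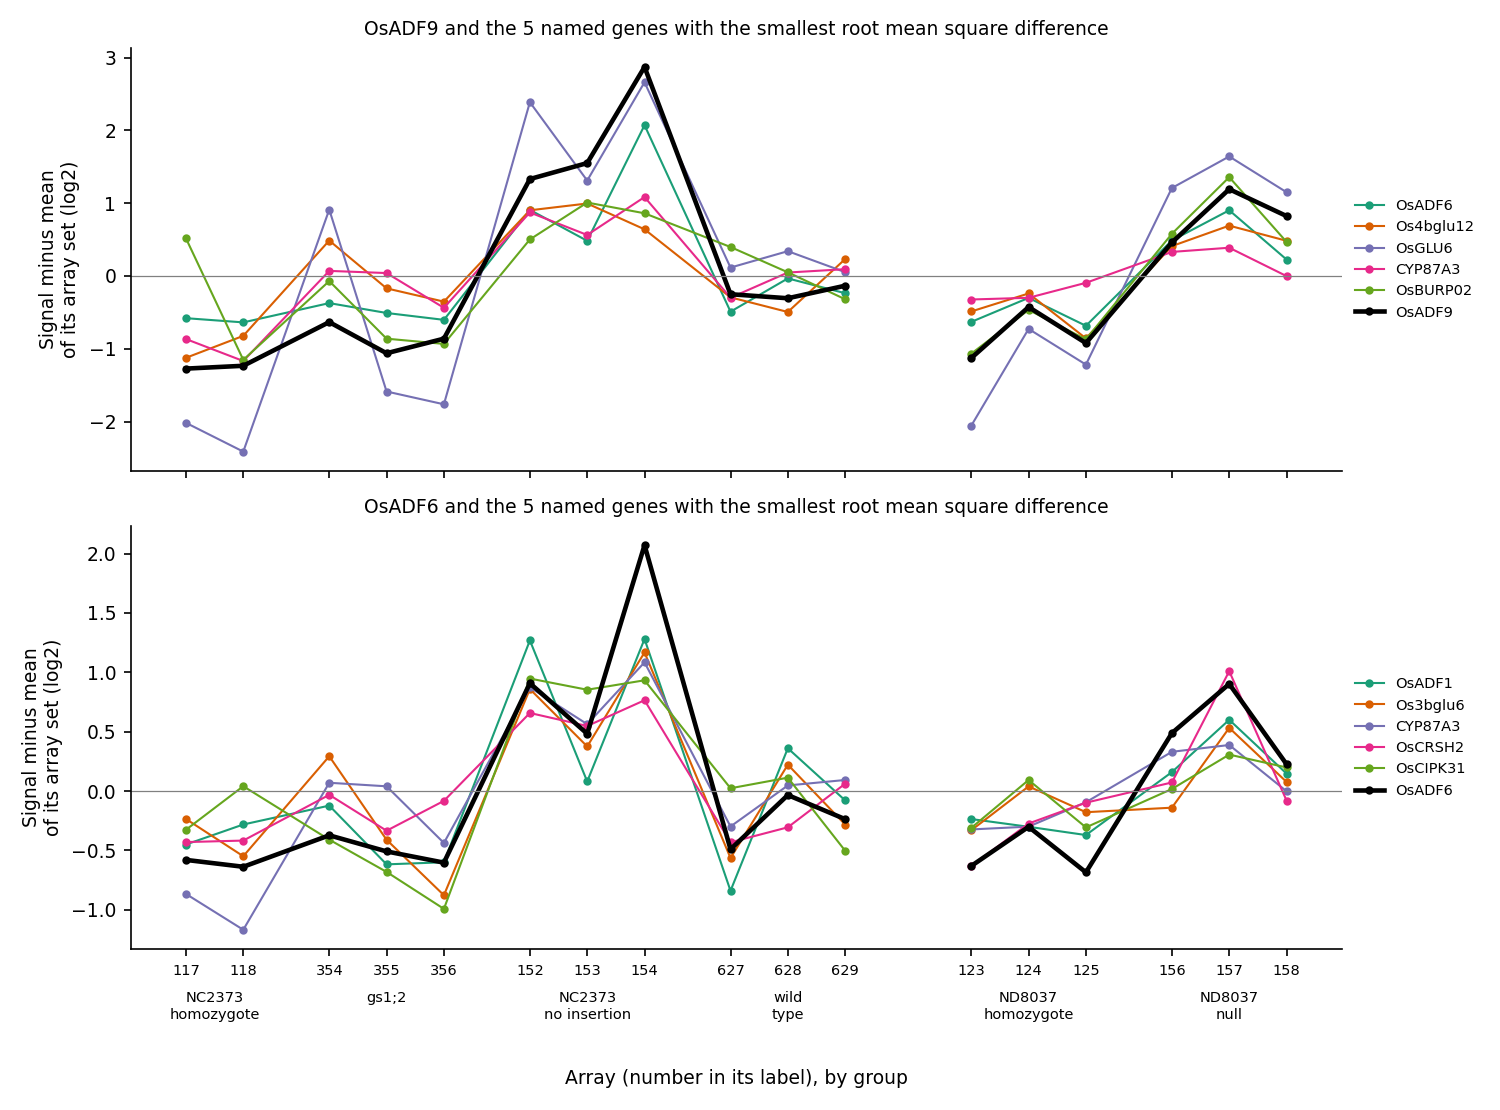
Log2 signal of OsADF9 (above) and OsADF6 (below), each with its 5 nearest named genes, on each of the 17 arrays, minus the mean of the gene's array set (lines join arrays only to guide the eye). For OsADF9 and OsADF6 the arrays of NC2373 without insertion are the highest of their own array set, with array 154 on top.

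Markers of other tissues also moved between the groups. The mean log2 signal of 2 leaf genes, RBCS and RCA of carbon fixation, was 11.8 to 12.5 in NC2373 homozygotes, 6.67 to 7.33 in gs1;2, 9.18 to 9.99 in NC2373 without insertion and 7.56 to 8.49 in wild type. It was 10.3 to 12.0 in ND8037 homozygotes and 8.38 to 9.30 in ND8037 nulls. Both leaf genes rose in the homozygotes of each line, while OsADF6 and OsADF9 were low there. In either direction 7.65% of all probe sets passed in NC2373 and 9.08% in ND8037. In gs1;2 the leaf mean lay below wild type (0 of 2 genes passed in limma, where 4.03% of all probe sets did, with 1 at an unadjusted p under 0.05). RBCS, 1 of the 2, also rose in NC2373 without insertion against wild type (1.93, limma adjusted p = 0.0340) by the brightest of its 4 probe sets, while the others did not pass. In that comparison 0.428% of all probe sets rose. The mean of 4 root markers was 8.67 to 8.89 in NC2373 homozygotes, 8.93 to 9.10 in gs1;2, 9.05 to 9.23 in NC2373 without insertion and 9.11 to 9.62 in wild type. In the ND8037 set it was 8.18 to 8.66 in homozygotes and 8.80 to 8.85 in nulls. This mean thus lay below the controls, without overlap, in the homozygotes of both lines, as single probe sets did at 5.33%. In the mean effect all 4 had a negative difference (median -0.37) and an unadjusted p under 0.05. The share of all probe sets with such an unadjusted p was not counted, here or below. At an adjusted p under 0.05, 14.0% of all probe sets passed in the mean effect in limma. PT6, 1 of the 4, was dim, below the lower quartile of all probe sets on every array. LSI2 fell (-0.52, limma adjusted p = 0.0420), where 7.09% of all probe sets did. In each line alone 0 of the 4 passed in limma, where 7.65% of all probe sets did in NC2373 and 9.08% in ND8037. An unadjusted p under 0.05 was found for 1 in NC2373 and 2 in ND8037. Relative to wild type, LSI2 fell by 0.81 in gs1;2 (limma adjusted p = 0.0467), where 4.03% of all probe sets passed in either direction. In NC2373 homozygotes LSI1 fell by 0.58 (limma adjusted p = 0.0149) and LSI2 by 0.97 (limma adjusted p = 0.0212) relative to wild type, where 3.67% of all probe sets fell. The mean of 2 root hair genes, CSLD1 and SRH2, was 8.26 to 8.28 in NC2373 homozygotes and 8.04 to 8.60 in their controls, and 7.45 to 7.73 in ND8037 homozygotes and 7.27 to 7.54 in their nulls, so the groups overlapped in both lines. It was 7.64 to 7.88 in gs1;2, below wild type at 7.96 to 8.06. There 0 of 2 passed in limma, with 1 at an unadjusted p under 0.05. Relative to NC2373 without insertion, SRH2 fell by 0.72 in gs1;2 (limma adjusted p = 0.00359), where 5.95% of all probe sets fell. The mean of 5 pollen and anther genes was 4.56 to 4.74 in NC2373 homozygotes and 4.76 to 4.88 in their controls, and 4.31 to 4.44 in ND8037 homozygotes and 4.22 to 4.37 in their nulls. Of these 5 genes MSP1 fell in NC2373 homozygotes (-0.58, limma adjusted p = 0.00894), where 3.58% of all probe sets fell. MTR1 rose in ND8037 homozygotes (0.39, limma adjusted p = 0.0332), where 9.08% passed in either direction. The part of these markers in the values of OsADF6 and OsADF9 was not tested.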

How the data were processed

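The authors deposited log2 signals, 1 for each probe set on each array, which come from RMA according to the submitters' processing notes. Which software ran RMA is not stated in the labels. RNA was isolated with an RNeasy kit and labelled with a 3' IVT kit in all 17 samples, per the labels' protocols. The table lists 57381 probe sets; without its 123 Affymetrix control probe sets, 57258 were tested and none was dropped for low signal. The 17 arrays entered 1 limma fit (limma 3.58.1, R 4.3.3) with a mean per group, which left 11 residual degrees of freedom. P-values are two-sided and Benjamini-Hochberg adjusted over all tested probe sets, with calls under 0.05. The number of arrays limits the precision.

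Genes were named from the platform annotation joined to a RefSeq table, in which 22436 probe sets had 1 gene and 95 several. Where a gene had several probe sets, the one with the highest mean signal was used. The named-gene rule took OsADF6 and OsADF9, the other ADF genes, up to 4 members of each actin list by adjusted p, and the 5 nearest named genes. Of the ADF genes in the RefSeq table, OsADF3 is not analysed here. OsADF6, OsADF9, the lists and the tests were chosen with earlier results of these data known. The fit was tested on simulated data. Alternatives were quantile normalization, fewer arrays in the fit, a trended robust variance, array weights, a filter on dim probe sets and leaving out each array. Python 3.11.15 with matplotlib 3.10.9 made the plots.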

Additional observations from a re-analysis of the deposited data

How the results depend on the processing

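The differences of OsADF6 and OsADF9 kept their sign in every comparison under every alternative that gave a value, and neither passed between gs1;2 and wild type, where adjusted p ran from 0.0681 to 0.506 for OsADF9 and from 0.364 to 0.910 for OsADF6. Leaving out single arrays gave differences there of -0.73 to -0.52 and -0.36 to -0.13. Over the 17 arrays of both sets, as the filter on dim probe sets takes them, OsADF9 averages 4.03 and OsADF6 4.71. Both lie below the median probe set at 5.14, so that filter leaves them out and gave no value. Each gene has 1 probe set, so no other probe set could be tried. No paired analysis was possible because the groups share no sample numbers. The cause of the following changes was not tested, beyond the fewer arrays in some fits.

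The count of probe sets called moved most. For gs1;2 minus wild type it was 2310, and 1360 with only the array set and 615 with only the groups compared in the fit. For NC2373 without insertion minus wild type it was 523, and 133 and 20. For NC2373 homozygotes it was 4382, and 2189 with only the groups compared. For ND8037 homozygotes it was 5200, and 3213 in both smaller fits. For the difference between lines it was 5, and 1 after quantile normalization, 102 with only the groups compared and 2 with dim probe sets left out. Leaving out 1 array gave 555 to 2817, 118 to 1036, 1525 to 4883, 2075 to 5546 and 1 to 141 in that order, and 5260 to 8261 for the mean effect, against 7991. With the other measures of likeness, 3 of 5 names were shared for OsADF6 in both and 3 for OsADF9 over the arrays outside ND8037.

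Fits with fewer arrays or with array weights ended further calls. OsADF1 in NC2373 had an adjusted p of 0.0944 with its array set alone, 0.135 with only its groups and 0.0549 with array weights. OsADF4 in the mean effect had 0.0670 with only the groups. With only the groups compared, FH6 (0.0665), FH15 (0.116) and VLN5 (0.114) lost their NC2373 calls, and actin-6 its ND8037 call (0.0589). VLN5 also lost its call after quantile normalization (0.0503), with its array set alone (0.0846) and with array weights (0.0566). Actin-6 lost its call with array weights as well (0.0596). In ND8037, OsADF1 passed in the smaller fits (0.0411) and OsADF4 with dim probe sets left out (0.0412).

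Some small differences that were not called changed sign. OsADF11 in ND8037 was 0.051 with array weights, and OsADF7 in the mean effect -0.00037 after quantile normalization. With 1 array left out, OsADF1 in gs1;2 minus wild type ran from -0.587 to 0.013. In NC2373 without insertion minus wild type, OsADF5 ran from -0.016 to 0.074 and OsADF2 from -0.031 to 0.017. OsADF5 in NC2373 homozygotes ran from -0.091 to 0.063, OsADF11 in ND8037 from -0.23 to 0.12 and OsADF7 in the mean effect from -0.060 to 0.072.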
